A study of Mus musculus with 6 samples.

Results

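The receptors of adrenomedullin and of calcitonin gene-related peptide (CGRP), their accessory proteins and their ligands were followed in RNA of the whole mouse aorta. The family was given as 10 genes by name and found by NCBI gene identifier. These were the receptor genes *Calcrl*, *Calcr* and *Gpr182*, the receptor activity-modifying proteins *Ramp1*, *Ramp2* and *Ramp3*, and the peptide genes *Adm*, *Adm2*, *Calca* and *Calcb*. Of the 18191 genes in the expression table, 9 belonged to the family, and *Adm2* was not analysed here. The members were chosen by name, with the counts, FPKM values and genotype differences of these same libraries already known. Those differences are therefore given as a description. No p-value is printed for a member, and counts of members past a threshold stand beside the share of all genes and support nothing.

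RNA was sequenced from the aorta of male mice in 3 libraries of wild type (WT) and 3 of Npr1+/- mice, and each genotype has numbers 1 to 3. The Npr1+/- mice are heterozygous for a knockout made with CRISPR-Cas9, with no restriction to a cell type named, and *Npr1* encodes the receptor of atrial and brain natriuretic peptide. The labels name no other allele and no agent for either genotype, and the age of the mice and any pooling of animals are not given in the sources used here. Since nothing states that the libraries came from separate animals, the SDs below may be partly technical.

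Adrenomedullin and CGRP are peptides that relax blood vessels. Both act through the calcitonin receptor-like receptor, encoded by *Calcrl*, which reaches the cell surface and gains its ligand preference only with a RAMP. With RAMP1 it is the receptor of CGRP, made mainly by sensory nerves, and with RAMP2 or RAMP3 it is a receptor of adrenomedullin, made by the vessel wall itself. The RAMP2 form is best known from endothelial cells, where it is needed for vascular integrity, and the activated receptor raises cAMP through the stimulatory G protein.

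The promoters of *Calcrl*, *Ramp1* and *Adm* are shown because these 3 genes were well expressed and their upstream sequence was in the RefSeq table. The table (GRCm38.p6) held a promoter for 7 of the 10 genes, with none for *Ramp2*, *Gpr182* and *Calcb*. The sequences run 5′ to 3′ over the 250 bases before the start annotated in RefSeq. They lie on chr2:84425267-84425516 (minus strand), chr1:91179572-91179821 (plus strand) and chr7:110627407-110627656 (plus strand). Capitals mark CAGGAA, a core bound by ETS factors such as those of endothelial cells, read on either strand.
Calcrl: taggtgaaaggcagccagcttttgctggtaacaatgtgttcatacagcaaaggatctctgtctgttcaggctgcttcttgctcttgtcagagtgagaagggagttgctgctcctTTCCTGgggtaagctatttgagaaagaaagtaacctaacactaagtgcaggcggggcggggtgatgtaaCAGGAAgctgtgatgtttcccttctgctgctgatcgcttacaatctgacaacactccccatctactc
Ramp1: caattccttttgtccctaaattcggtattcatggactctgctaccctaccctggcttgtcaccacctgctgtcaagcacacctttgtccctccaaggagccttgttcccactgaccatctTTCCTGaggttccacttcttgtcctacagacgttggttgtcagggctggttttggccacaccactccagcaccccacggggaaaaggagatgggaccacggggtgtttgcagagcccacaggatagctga
Adm: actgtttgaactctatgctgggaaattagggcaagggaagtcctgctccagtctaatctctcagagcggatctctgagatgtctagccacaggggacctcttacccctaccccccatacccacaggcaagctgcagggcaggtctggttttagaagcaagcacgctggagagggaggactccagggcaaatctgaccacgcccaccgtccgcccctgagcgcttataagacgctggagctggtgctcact

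The *Calcrl* window held CAGGAA at 2 places, which begin 136 and 67 bases before the RefSeq start. GENCODE M21 starts *Calcrl* farther upstream, at 84425411 on the minus strand, which is within the window. By that annotation both places lie inside the gene. The *Ramp1* window held CAGGAA at 1 place, which begins 130 bases before the start. CAGGAA on either strand was present in 25.7% of the 32851 promoter windows of this length. ACGTG, a form of the hypoxia core present in 16.6% of the windows, was in none of these 3 windows. The cAMP response core TGACG, present in 17.8%, was also in none of them. Other forms of the hypoxia core, such as GCGTG, were not searched, so that their absence is not shown. ACGTG and TGACG share the letters ACG and can overlap where both occur.

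The other sequence shown is that of the CGRP genes. *Calca* encodes alpha CGRP and calcitonin, and *Calcb* encodes beta CGRP. Both lie on chromosome 7 of GRCm38, *Calca* from 114631478 to 114636357 on the minus strand and *Calcb* from 114718643 to 114723365 on the plus strand. Their coding sequences in GENCODE M21 share a run of 61 bases without a mismatch. A read that falls wholly within it matches both genes, and whether any read did was not examined.
Calca and Calcb: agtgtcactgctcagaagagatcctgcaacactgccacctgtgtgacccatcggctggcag
The longest shared run was 20 bases between *Calcrl* and *Calcr* and at most 13 bases between any pair of RAMP genes. These runs are shorter than that of the CGRP genes.

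The estimated counts summed to between 13510970 and 16664343 per library. The lowest signal considered, 3 counts, corresponds to between 0.180 and 0.222 CPM, here the count scaled to the library total. Ratios and overlaps in CPM below were also normalized between libraries. *Npr1* had an FPKM (fragments scaled to transcript length and library size) of 112.43, 153.33 and 151.51 in WT and of 70.35, 109.92 and 132.95 in Npr1+/- libraries 1 to 3. The genotypes overlapped, with the Npr1+/- library lower within each number. Both libraries numbered 1 stood apart on the first principal component, which held 59.3% of the variance. The library Npr1+/- 1 also held 299.65 summed FPKM of 10 sympathetic neuron markers, against 70.18 to 83.79 in the other 5 libraries. Of the defining markers, *Th* was listed at 0 in all 3 WT libraries and at 38.97 FPKM in Npr1+/- 1. The tissue was recognised by its smooth muscle markers, such as *Acta2* and *Myh11*, whose 8 genes summed to between 4955.67 and 14941.02 FPKM, and by the 12 endothelial markers, of which none was at 0 in any library.

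In WT aortas the RNA of the family was led by *Ramp1* at 62.0 ± 16.6 FPKM (SD, n = 3) and *Ramp2* at 50.3 ± 5.61 FPKM (SD, n = 3), whose ranges overlapped. *Calcrl* at 13.4 ± 3.30 FPKM (SD, n = 3) and *Adm* at 10.9 ± 2.55 FPKM (SD, n = 3) followed, and their ranges overlapped as well. *Gpr182* had 2.03 ± 1.40 FPKM (SD, n = 3) and lay below all values of *Adm*. *Ramp3* at 0.343 ± 0.0737 FPKM and *Calca* at 0.220 ± 0.187 FPKM (SD, n = 3 each) could not be ordered by their ranges, and *Calcr* and *Calcb* were at or near 0. RNA of *Calcrl*, *Ramp1* and *Ramp2* was thus present in every library, with *Ramp1* and *Ramp2* each at a higher FPKM than *Calcrl*. Whether the same cells held these RNAs cannot be told from a whole vessel. Among all genes of the table, the WT mean of *Ramp1* stood at the 93.1 percentile, that of *Calcrl* at the 70.9 and that of *Ramp3* at the 25.7.

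**Figure D1:**
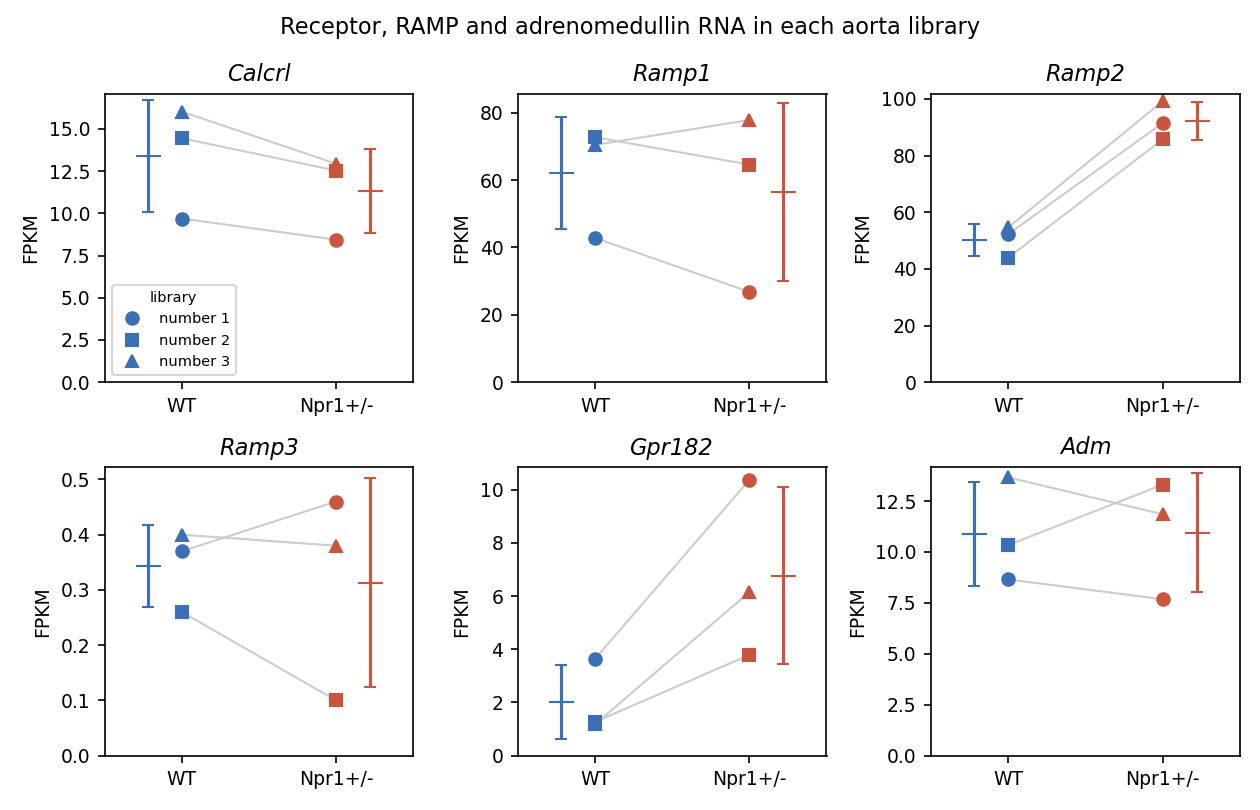
FPKM of 6 family genes in WT (blue) and Npr1+/- (red) libraries, with grey lines between libraries of the same number and bars for the mean ± SD (n = 3). *Ramp2* and *Gpr182* show no overlap, with every Npr1+/- point above the WT points, and the other 4 genes overlap.

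*Ramp2* maps to chr11:101246028-101259546 (GRCm38, plus strand). WT libraries 1 to 3 had 52.26, 43.96 and 54.64 FPKM, and the Npr1+/- libraries had 91.47, 85.72 and 99.14 FPKM in the same order. All Npr1+/- libraries were above all WT libraries, and the lowest of them was 85.72 where the highest WT value was 54.64. The mean was 50.3 ± 5.61 FPKM in WT and 92.1 ± 6.73 FPKM in Npr1+/- aortas (SD, n = 3 each), and the log2 fold change was 0.88 with a standard error of 0.14. In CPM the Npr1+/- library was 1.83, 2.01 and 1.72 times the WT library of the same number. Leaving out any single library gave log2 fold changes of 0.78 to 0.95, and leaving out both libraries numbered 1 gave 0.88. All 3 of these ratios were above 1 for 17.5% of the genes tested. Among the 13938 genes tested, 457 had a larger log2 fold change than *Ramp2*.

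The annotation of *Ramp2* overlaps that of the next gene, *Vps25*, by 5840 bases on the same strand. *Vps25*, which encodes an endosomal sorting protein, had 75.8 ± 9.07 FPKM in WT and 76.2 ± 10.5 FPKM in Npr1+/- aortas (SD, n = 3 each), and its log2 fold change was 0.02 (standard error 0.16). *Vps25* thus differed by less than the spread between libraries.

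*Gpr182*, at chr10:127747276-127751732 (GRCm38, minus strand), encodes a receptor of endothelial cells that was once proposed for adrenomedullin and is now described as a scavenger of chemokines. It was at 3.64, 1.27 and 1.18 FPKM in the WT libraries and at 10.37, 3.79 and 6.15 FPKM in the Npr1+/- libraries, in the order of their numbers. The genotypes did not overlap, although the lowest Npr1+/- value, 3.79, was close to the highest WT value, 3.64. Within both genotypes, the library numbered 1 was the highest. The log2 fold change was 1.77 with a standard error of 0.57, and the Npr1+/- library was 2.98, 3.08 and 4.96 times the WT library of the same number in CPM. Without Npr1+/- 1 the log2 fold change was 1.27, without WT 1 it was 2.47, and without both it was 1.997. The gene on the other strand, *Zbtb39*, overlaps *Gpr182* by 74 bases and had a log2 fold change of -0.05 (standard error 0.16).

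*Calcrl*, the receptor that both peptides share, maps to chr2:84330626-84425411 (GRCm38, minus strand). The WT libraries had 9.69, 14.45 and 16.03 FPKM, in the order of their numbers, and the Npr1+/- libraries 8.44, 12.54 and 12.94 FPKM. The genotypes overlapped, and both libraries numbered 1 were lowest. In CPM, *Calcrl* in Npr1+/- libraries was 0.906, 0.895 and 0.767 times that in the WT library of the same number, and such ratios were all below 1 for 16.9% of the genes tested. The log2 fold change was -0.24 with a standard error of 0.24.

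*Ramp1*, the partner of the CGRP receptor, maps to chr1:91179822-91225196 (GRCm38, plus strand). It reached 42.84, 72.74 and 70.47 FPKM in the WT libraries and 26.82, 64.63 and 77.87 FPKM in the Npr1+/- libraries, again by number. The spread within a genotype was wider than the difference between them, as both libraries numbered 1 were far below the others. The log2 fold change was -0.15 with a standard error of 0.40. It turned to 0.17 without Npr1+/- 1, so that no direction can be given for *Ramp1*.

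*Ramp3*, the other partner for adrenomedullin, maps to chr11:6658521-6677475 (GRCm38, plus strand). It had an estimated count of 6, 5 and 8 in WT and of 9, 2 and 7 in Npr1+/- libraries, and the groups overlapped. *Calcr*, the calcitonin receptor, had a count of 2, 2 and 0 in WT and of 0 in each Npr1+/- library, under the limit of 3 counts in every library. A difference in *Calcr* was not detectable at this depth.

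**Figure D2:**
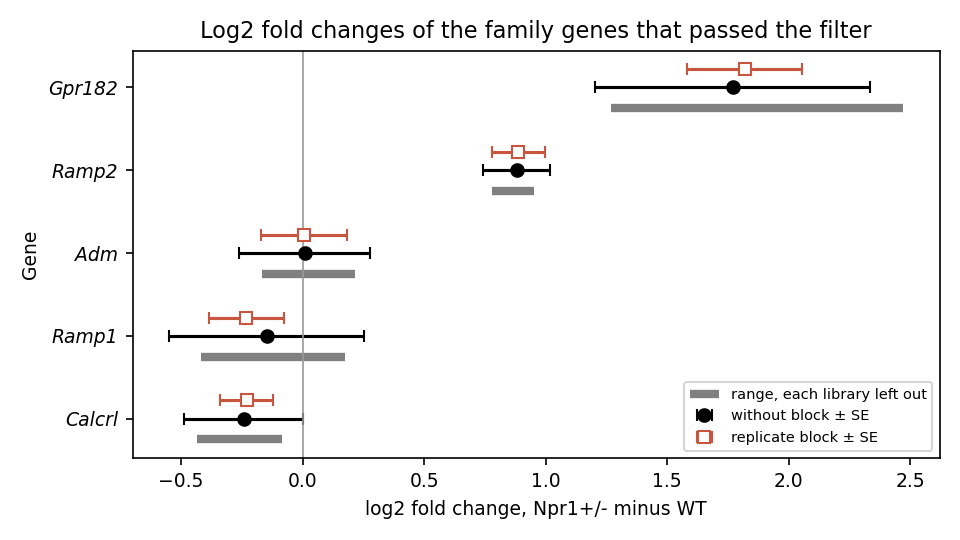
Log2 fold change between Npr1+/- and WT aortas of the 5 family genes with enough counts to be tested, without (black) and with (red) the replicate number as a block, ± standard error, with the range when each library is left out in grey. *Gpr182* at 1.77 and *Ramp2* at 0.88 lie to the right of 0 in every setting, while *Adm* lies at 0.01.

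*Adm*, at chr7:110627661-110629820 (GRCm38, plus strand), encodes adrenomedullin. By number, the WT libraries held 8.65, 10.34 and 13.66 FPKM and the Npr1+/- libraries 7.68, 13.30 and 11.85 FPKM. The genotypes had nearly the same mean, 10.9 ± 2.55 in WT and 10.9 ± 2.92 in Npr1+/- aortas (SD, n = 3 each), and the log2 fold change was 0.01 with a standard error of 0.27. The RNA of the ligand therefore differed by less than the spread between libraries. An antisense gene, *Gm28863*, is annotated across the whole of *Adm*, and counting by strand is not stated in the sources used here, so that reads of both could not be told apart.

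The CGRP genes were close to the limit of detection. *Calca* had an estimated count of 5, 5.94 and 1 in WT and of 13.67, 5.2 and 10.82 in Npr1+/- libraries 1 to 3. The genotypes overlapped, and the highest value was that of Npr1+/- 1, the library with the neuron markers. In FPKM, *Calca* was 0.43, 0.16 and 0.07 in WT and 0.42, 0.14 and 0.38 in Npr1+/- libraries, so that WT 1 and Npr1+/- 1 were nearly equal on that scale. The summed FPKM of 8 sensory neuron markers was 19.18 in Npr1+/- 1 and between 2 and 3.11 in the other 5 libraries. *Tac1*, the gene of substance P and a companion of CGRP in sensory nerves, was at 0 in 4 of the 6 libraries, Npr1+/- 1 among them. The part of neurons in the counts of *Calca* was not tested. *Calcb* had a count of 1 in WT 1 and in Npr1+/- 2 and of 0 elsewhere.

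Across all genes tested, no member of the family passed the main threshold. A gene was called when edgeR gave it a Benjamini-Hochberg adjusted p under 0.05 and its log2 fold change was 0.5 or more in size. This quasi-likelihood fit called 0 of the 5 members tested, beside 0 of all 13938 genes (0%), and 0 members with the replicate number as a block, again beside 0%. At an unadjusted p under 0.05 both fits held 2 members, *Ramp2* and *Gpr182*, both higher in Npr1+/- aortas. Of all genes, 2.96% were under that p without the block (1.88% higher and 1.08% lower) and 12.4% with it (7.36% higher and 5.09% lower). DESeq2 called 1 member, *Ramp2*, which was higher, beside 0.0942% of the genes to which it gave an adjusted p (0.0883% higher). The 2 genes were also the members with all Npr1+/- libraries above all WT libraries in CPM, as were 3.90% of the genes tested, and 0 members were below, as were 3.58%. Since the family was chosen with these values known, nothing is read from the counts. *Ramp3*, *Calcr*, *Calca* and *Calcb* had too few counts to be tested.

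The composition of RAMP RNA within a library does not depend on the scaling between libraries. *Ramp2* made up 54.7%, 37.6% and 43.5% of the summed RAMP FPKM in the WT libraries, by number, and 77.0%, 57.0% and 55.9% in the Npr1+/- libraries. All Npr1+/- values were above all WT values, with a mean of 45.3% ± 8.71 in WT and 63.3% ± 11.9 in Npr1+/- aortas (SD, n = 3 each). *Ramp1* took nearly all of the rest, at 54.4% ± 8.79 in WT and 36.5% ± 12.04 in Npr1+/- aortas (SD, n = 3 each). *Ramp3* was between 0.0665% and 0.388% of the sum in the 6 libraries. *Ramp1* was the larger of the main RAMPs in WT 2 and WT 3, and *Ramp2* was the larger in WT 1 and in all Npr1+/- libraries.

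**Figure D3:**
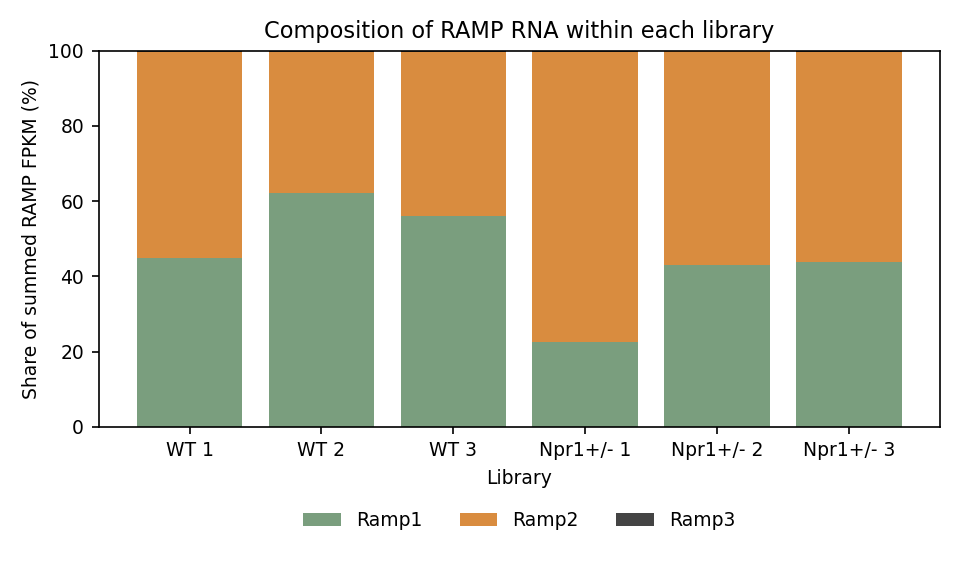
Share of *Ramp1*, *Ramp2* and *Ramp3* in the summed RAMP FPKM of each library, as stacked bars from 0% to 100%. The share of *Ramp2* is 37.6% to 54.7% in WT and 55.9% to 77.0% in Npr1+/- libraries, and *Ramp3* is too small to be seen.

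Set against the shared receptor, *Ramp2* stood at 5.39, 3.04 and 3.41 times the FPKM of *Calcrl* in WT 1 to 3 and at 10.8, 6.84 and 7.66 times in Npr1+/- 1 to 3. The ratio of *Ramp1* to *Calcrl* was 4.42, 5.03 and 4.40 in WT and 3.18, 5.15 and 6.02 in Npr1+/- libraries. The first ratio did not overlap between the genotypes and the second did. The ratio of *Adm* to *Calcrl* was between 0.716 and 0.893 in WT and between 0.910 and 1.06 in Npr1+/- libraries, without overlap but with a narrow gap.

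In RNA of a whole vessel, a different number of cells of one type and a different amount of RNA per cell cannot be told apart. The 12 endothelial markers, among them *Pecam1*, *Cdh5* and *Vwf*, summed to between 200.41 and 293.37 FPKM in WT and to between 328.89 and 469.25 FPKM in Npr1+/- libraries, without overlap. Of the 12, 11 had a positive log2 fold change and *Erg* a negative one, with a median of 0.59. In edgeR 0 passed the adjusted threshold, beside 0 of all 13938 genes. At an unadjusted p under 0.05 in edgeR, 4 were higher and 0 lower, beside 1.88% and 1.08% of all genes. With the block 8 were higher and 1 lower, beside 7.36% and 5.09%. In CPM 4 did not overlap and were higher, beside 3.90% of the genes tested, and 0 were lower, beside 3.58%. The geometric mean of the 12 overlapped between genotypes, at 16.1 ± 3.86 FPKM in WT and 22.4 ± 6.59 FPKM in Npr1+/- aortas (SD, n = 3 each). It was higher in the Npr1+/- library within each number. The 8 adipocyte markers, all with a positive log2 fold change (median 0.66), summed to between 1617.23 and 8802.69 FPKM in WT and to between 3643.3 and 12678.63 FPKM in Npr1+/- libraries. They overlapped, with WT 1 above Npr1+/- 2 and 3, and 0 were called. The adipocyte sum was higher in the Npr1+/- library within each number. At an unadjusted p under 0.05 there were 0 of these markers without the block, beside 2.96% of all genes. With the block 5 were higher and 0 lower, beside 7.36% and 5.09%. The 10 cardiac and skeletal muscle markers summed to between 16.6 and 24.29 FPKM in WT and to between 25.21 and 35.67 FPKM in Npr1+/- libraries, without overlap. Of the 7 tested, 4 had a positive and 3 a negative log2 fold change, and 0 were called. The summed endothelial level was higher in all Npr1+/- libraries, while the geometric mean of the same markers overlapped. *Pecam1* was the largest single part of that sum, at 69.68 to 120.68 FPKM in WT and 133.62 to 143.4 FPKM in Npr1+/- libraries. The part of any of these lists in the difference of *Ramp2* or *Gpr182* was not tested.

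Relative to the geometric mean of the endothelial markers, *Ramp2* stood at a log2 ratio of 1.40, 1.86 and 1.74 in the WT libraries, by number, and of 1.61, 2.16 and 2.47 in the Npr1+/- libraries. The genotypes overlapped on this scale, although the Npr1+/- library was higher within each number, and the means differed by 0.41, beside the log2 fold change of 0.88 in the count fit. *Gpr182* had a log2 ratio of -2.45, -3.25 and -3.79 in WT and of -1.53, -2.34 and -1.54 in Npr1+/- libraries, which did not overlap, and the means differed by 1.36. *Calcrl*, which endothelial cells also express, had a log2 ratio of -1.03, 0.25 and -0.03 in WT and of -1.83, -0.62 and -0.47 in Npr1+/- libraries. The genotypes overlapped, and the Npr1+/- library was lower within each number.

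Since *Gpr182* is also known from lymphatic endothelium, its markers were set beside it. The 7 lymphatic markers, none of them at 0 in any library, summed to between 30.25 and 84.08 FPKM in WT and to between 66.81 and 102.99 FPKM in Npr1+/- libraries, with overlap. Of the 7, 6 had a positive log2 fold change, with a median of 0.66. At an unadjusted p under 0.05 in edgeR there were 0, beside 2.96% of all genes. With the block 3 were higher and 0 lower, beside 7.36% and 5.09%. In CPM 1, *Ccl21a*, did not overlap and was higher, beside 3.90% of the genes tested, and 0 were lower, beside 3.58%. *Prox1*, which defines these cells, was at 0.14, 0.21 and 0.05 FPKM in WT and at 0.81, 0.12 and 0.33 FPKM in Npr1+/- libraries. These rest on low estimated counts, 14, 26 and 7 in WT and 89, 14 and 36 in Npr1+/- libraries. The lymphatic markers were not all this low. The part of lymphatic cells in the difference of *Gpr182* was not tested.

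Across all 6 libraries *Ramp1* followed the smooth muscle markers closely. Its FPKM ranged from 26.82 to 77.87, a span of 1.54 on the log2 scale, and its log2 ratio to the geometric mean of the 8 smooth muscle markers spanned 0.28. This ratio was -3.04 ± 0.05 in WT and -3.04 ± 0.15 in Npr1+/- aortas (SD, n = 3 each). For *Calcrl* the span was 0.93 in log2 FPKM and 0.76 in the ratio to smooth muscle markers, whose mean was -5.24 in both genotypes. *Ramp2* had a span of 1.17 in log2 FPKM, which widened to 2.49 relative to smooth muscle markers. The span of *Gpr182* widened from 3.14 to 4.49. Relative to the endothelial markers the span was 1.07 for *Ramp2*, 2.26 for *Gpr182*, 2.08 for *Calcrl* and 2.74 for *Ramp1*. The span of *Ramp2* was thus little changed on that scale. These values are a description of 6 libraries of 1 tissue, in which every gene shares the scaling of its library.

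**Figure D4:**
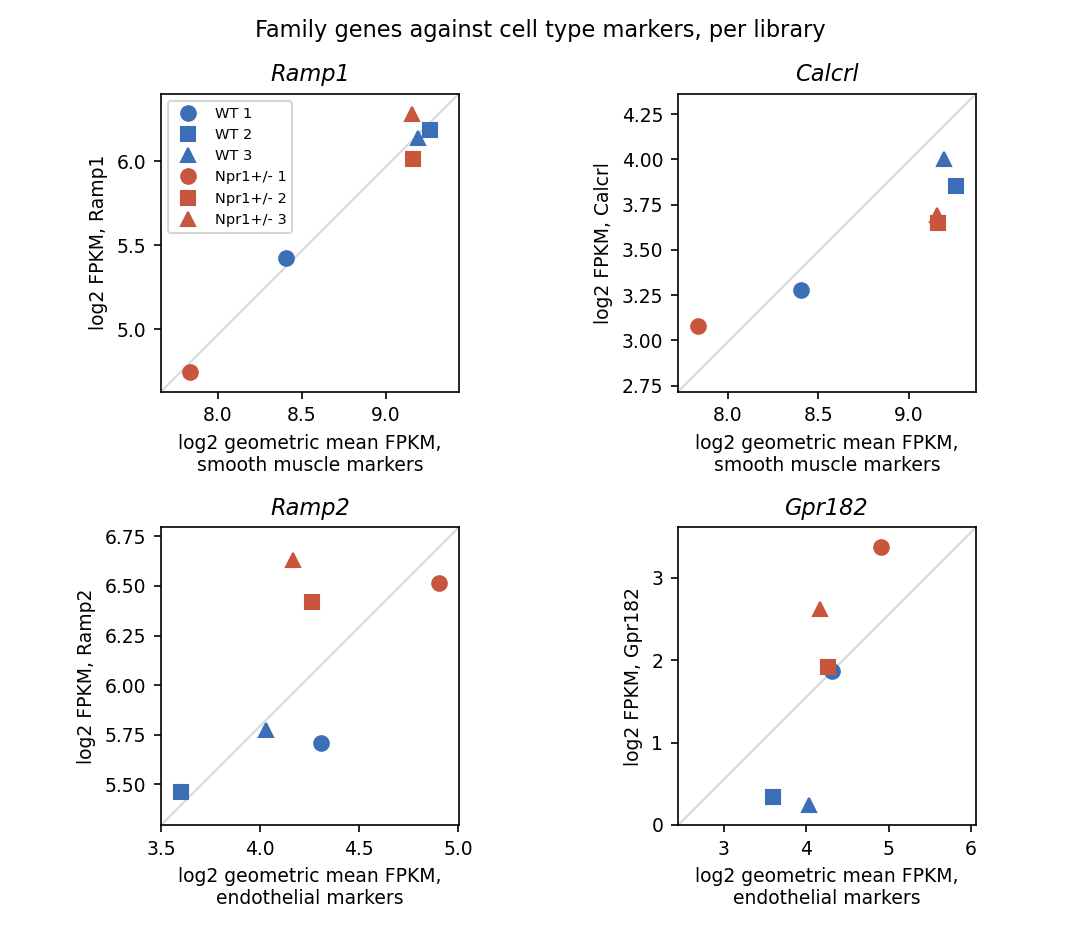
Log2 FPKM of *Ramp1* and *Calcrl* against the log2 geometric mean FPKM of 8 smooth muscle markers, and of *Ramp2* and *Gpr182* against that of 12 endothelial markers, 1 point per library. Grey lines have a slope of 1, both axes of a panel have the same span, and the ratio of *Ramp1* to its markers spans 0.28.

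The genes whose profile was most like each member over the 6 libraries were found by the root mean square difference of centred log2 CPM, among 12559 genes. For *Calcrl* these were *Zfp251*, *Vezf1* and *Ust*, at a difference of 0.03 to 0.04 where *Calcrl* itself varied by 0.31. For *Ramp1* they were *Scx*, *Tpm1* and *Wwp2*, at 0.03 to 0.05 where *Ramp1* varied by 0.54. For *Ramp2*, which varied by 0.46, the nearest genes were *Afap1l2*, *Cmip* and *Ass1*, at 0.11 to 0.16. *Adm* varied by 0.31, and *Sh3bp4*, *4921524J17Rik* and *Tspan9* lay within 0.06 to 0.07 of it. The nearest genes of *Ramp2* thus lay farther from it than those of the other 3 members from theirs.

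Genes that make, clear or answer to the peptides were taken from lists written with the family. Of 14 genes of peptide processing and clearance, 12 were tested and 0 passed edgeR's adjusted threshold in either direction, with a median log2 fold change of -0.06 beside 0.01 over all genes tested. Leaving out single libraries moved that median between -0.10 and 0.02, so that it has no set sign, and it was 0.01 without WT 1 and 0.02 without Npr1+/- 2. *Pam*, the enzyme that amidates adrenomedullin and CGRP to their active form, had 354 ± 94.5 FPKM in WT and 272 ± 110 FPKM in Npr1+/- aortas (SD, n = 3 each). The endothelin-converting enzyme *Ece1* had a log2 fold change of 0.23 (standard error 0.22) and the proprotein convertase *Pcsk5* one of -0.20 (standard error 0.22).

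Of the 33 genes of signalling from the receptor to cAMP, 32 were tested and 0 passed the adjusted threshold, with 19 positive and 13 negative log2 fold changes and a median of 0.07, which was -0.02 without WT 2 or without Npr1+/- 1. Without the block 2 of them, both higher, had an unadjusted p under 0.05, where 2.96% of all genes had. With the block 10 had, 5 in each direction, where 12.4% of all genes had. In CPM 3 did not overlap and were higher, beside 3.90% of the genes tested, and 1 was lower, beside 3.58%. *Adcy4*, an adenylyl cyclase of endothelial cells, was at 11.87, 9.25 and 8.65 FPKM in WT and at 16.19, 14.23 and 14.35 FPKM in Npr1+/- libraries. The genotypes did not overlap, and edgeR gave a log2 fold change of 0.59 ± 0.16 (standard error) at an adjusted p of 0.999. *Adcy9*, another adenylyl cyclase, did not overlap in the other direction, at 8.39 ± 0.692 FPKM in WT and 6.82 ± 0.363 FPKM in Npr1+/- aortas (SD, n = 3 each). *Prkar1b* encodes a regulatory subunit of the cAMP-dependent kinase. It had 1.67, 1.5 and 1.01 FPKM in WT and 12.93, 1.85 and 2 FPKM in Npr1+/- libraries, by number. Its genotypes did not overlap, and the value of 12.93 was that of Npr1+/- 1, the library with the neuron markers. *Pde4b*, which degrades cAMP, had a log2 fold change of -0.61 (standard error 0.30) with overlap.

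The other class B receptors, relatives of *Calcrl*, were mostly low. Of 13 listed, 7 were tested and 0 passed. Their log2 fold changes had a median of 0.45, which was 0.15 without Npr1+/- 1, 0.13 without both libraries numbered 1, 0.23 with the block and 0.21 with limma on log2(FPKM + 0.1). At an unadjusted p under 0.05 there were 0 genes, and 1 with the block, beside 2.96% and 12.4% of all genes. The vasoactive intestinal peptide receptor *Vipr1* had 0.517 ± 0.298 FPKM in WT and 0.777 ± 0.162 FPKM in Npr1+/- aortas (SD, n = 3 each). The secretin receptor *Sctr* had a log2 fold change of 0.74 (standard error 0.69), the gastric inhibitory polypeptide receptor *Gipr* one of 0.45 (standard error 0.29) and the PACAP receptor *Adcyap1r1* one of 0.51 (standard error 0.57). *Adcyap1r1* was at 2.29 FPKM in Npr1+/- 1 and at 0.60 and 0.61 FPKM in the other Npr1+/- libraries, below all WT values.

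*Adm* is a well-known target of hypoxia-inducible factors, and 18 genes of that response were examined. All 18 were tested and 0 passed the adjusted threshold, with 13 positive log2 fold changes and a median of 0.29. That median rested on single libraries, being -0.04 without Npr1+/- 1, 0.11 without WT 2 and 0.47 without Npr1+/- 3. At an unadjusted p under 0.05 there were 0 genes without the block, beside 2.96% of all genes, and 6 with it, all higher, beside 7.36% of all genes in that direction. *Ddit4* had 10.5 ± 2.69 FPKM in WT and 19.4 ± 11.7 FPKM in Npr1+/- aortas (SD, n = 3 each), with 32.8 FPKM in Npr1+/- 1 and 13.04 and 12.22 FPKM in the others. *Ndrg1* differed little, at 51.3 ± 1.84 and 57.1 ± 0.340 FPKM (SD, n = 3 each), although its genotypes did not overlap. *P4ha1*, a collagen prolyl hydroxylase, had a log2 fold change of 0.46 (standard error 0.33) and *Epas1*, which encodes a hypoxia-inducible factor, one of 0.39 (standard error 0.32).

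**Figure D5:**
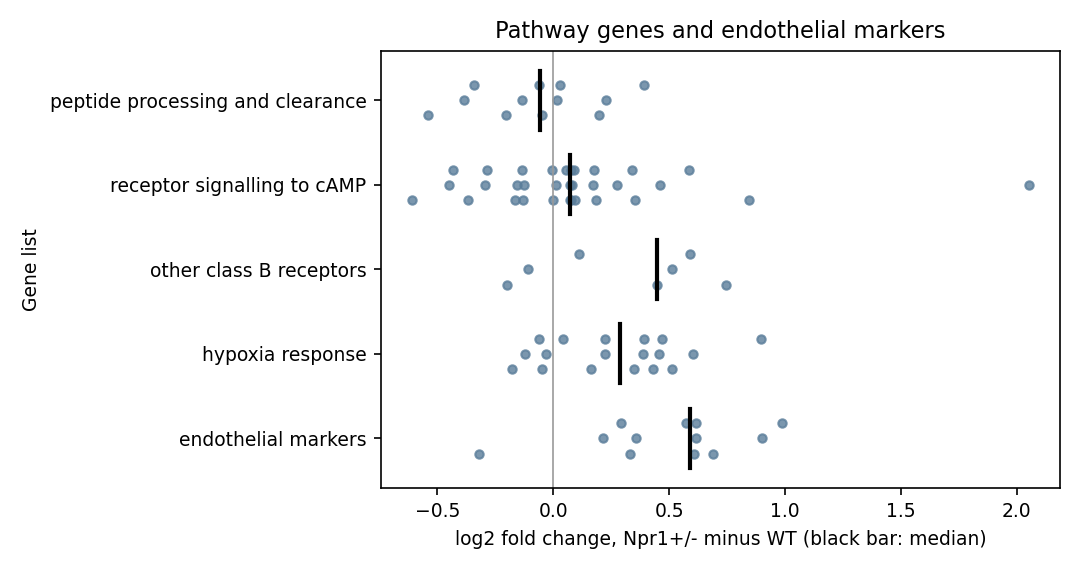
Log2 fold change between Npr1+/- and WT aortas of each tested gene of 4 pathway lists and of the endothelial markers, 1 point per gene, offset vertically only for legibility, with a black bar at the median. The medians are -0.06 for peptide processing and clearance, 0.07 for signalling to cAMP, 0.45 for other class B receptors, 0.29 for the hypoxia response (-0.04 without Npr1+/- 1) and 0.59 for endothelial markers.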

How the data were processed

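Reads were cleaned by the authors (SOAPnuke), mapped with Bowtie2 to coding reference genes and quantified with RSEM, and the submitters' processing notes name mm10. The deposited estimated counts are not normalized. The deposited FPKM were scaled by the authors per transcript length and library size. The authors' means per genotype were not used.

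Estimated counts were rounded and compared with R 4.3.3 and edgeR 4.0.16 (TMM, minimum count of 10, quasi-likelihood test, Benjamini-Hochberg adjustment over all genes tested), on all 6 libraries. CPM in ratios and overlaps used library totals over the genes tested, scaled by the TMM factors, and log2 CPM used a prior count of 2. The study used DESeq2, which was an alternative here (1.42.0), as was limma 3.58.1 on log2(FPKM + 0.1). The code was tested on simulated data. The libraries were paired by number, and the deviations of same-numbered libraries from their genotype means correlated at 0.64, 0.39 and 0.24. The labels say nothing of what a number stands for. Libraries WT 3 and Npr1+/- 2 correlated at 0.44, and WT 2 and Npr1+/- 3 at 0.37. These values therefore do not settle the pairing of numbers 2 and 3, on which the block and the comparisons within a number rest. Symbols matched 18070 of the identifiers. Positions and coding sequences are from GENCODE M21.

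The members and lists were chosen with earlier results of these data known. Besides the members and *Npr1*, the text names from each pathway list the 4 tested genes with the smallest unadjusted p and the 3 genes nearest to each of *Calcrl*, *Ramp1*, *Ramp2* and *Adm*, and marker genes where their list is described. A gene that this rule names is not reported here. *Ramp3* has no nearest genes because it was not tested. *Vps25*, *Zbtb39* and *Gm28863* were added for their overlap with members.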

Additional observations from a re-analysis of the deposited data

How the results depend on the processing

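The log2 fold changes of *Ramp2* and *Gpr182* were positive under DESeq2, DESeq2's size factors in edgeR, no filter on low counts, limma on log2(FPKM + 0.1), the replicate block and without each library in turn. With the block the value was 0.89 for *Ramp2* and 1.82 for *Gpr182*. With each library left out, they ranged from 0.78 to 0.95 and from 1.27 to 2.47, and that of *Calcrl* from -0.44 to -0.08. The values of *Ramp1* (-0.42 to 0.17) and *Adm* (-0.17 to 0.22) included both signs. DESeq2 called 1 member, *Ramp2*, where edgeR called 0, and 16 genes in all where edgeR called 0, and the cause was not tested. Without both libraries numbered 1, chosen after seeing the data, edgeR called 1 gene in all and 0 members, and the cause was not tested. The 4 pathway lists had 0 genes called in all these settings, and the block changed no call. Genes at a few counts, such as *Ramp3*, *Calcr*, *Calca* and *Calcb*, are limited by depth.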
